A study of Homo sapiens with 9 samples.

Results

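The heat shock proteins and their DNAJ partners were followed in 9 RNA-seq libraries of SH-SY5Y cells, an established line grown from a human neuroblastoma that resembles immature sympathetic neurons. The cells had been kept for 72 h with vehicle, 10 µM citrinin or 20 µM citrinin, with 3 libraries at each dose. Citrinin is a mycotoxin of Penicillium, Aspergillus and Monascus moulds. The line is the same in all groups, the vehicle is not named in the labels, and the sample titles number the libraries 1 to 3 within each dose without saying what a number stands for. Nothing in the labels tells separate cultures from technical repeats, so the p-values below measure the spread between these libraries alone.

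Members were chosen by symbol. They are the genes named HSPA, HSPB, HSPD, HSPE, HSPH, HSP90A, DNAJA, DNAJB or DNAJC with a number, together with HSF1, HSF2 and BAG3, without numbered pseudogenes and without 5 chaperones of the endoplasmic reticulum. The rule took 84 of 61487 gene identifiers. Of these, 70 are chaperone or regulator genes and 14 are antisense, divergent or readthrough loci that carry a chaperone's name. Reads were enough for a test in 60 of the 70 genes. The other 10 were HSPB2, with 0 reads, and 9 genes with 1 to 72 reads over all 9 libraries. Exons of HSPB2 overlap those of CRYAB and of the readthrough locus HSPB2-C11orf52. Reads there are not counted, so its 0 does not show that it is silent. HSPA7 and DNAJB3, among those 9, are annotated as pseudogenes.

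HSP70 proteins bind unfolded stretches of other proteins and release them in a cycle driven by ATP. DNAJ proteins, also called HSP40, bring clients to HSP70 and stimulate its ATPase, and HSP110 proteins and BAG proteins exchange its nucleotide. HSP90 receives partly folded clients from HSP70, small heat shock proteins hold unfolded proteins in solution, and HSPD1 with HSPE1 forms the folding chamber of mitochondria. HSF1 is the transcription factor that raises many of these genes under proteotoxic stress by binding heat shock elements, inverted repeats of the unit GAA and its complement TTC. HSF1 is regulated mainly as a protein, so its own transcript is a poor reading of its activity.

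RefSeq promoter windows on GRCh38.p14, from 250 bases before to 50 bases after each transcript start, were matched by symbol for 60 of the 70 genes, in 80 windows. The 250 bases before the start are given below for the 3 genes that rose with citrinin (HSPA8, DNAJB4 and HSPH1), for the stress-inducible HSPA1A, and for HSPA6, whose reads came mostly from 1 replicate number. Each is written 5′ to 3′ on the gene's own strand. Capitals mark the 3-unit element, which is TTCNNGAA followed by NN and a further TTC, or its reverse complement. Where a window holds none, they mark the 2-unit elements TTCNNGAA and GAANNTTC.
HSPA8, chr11:123062137-123062386, minus strand: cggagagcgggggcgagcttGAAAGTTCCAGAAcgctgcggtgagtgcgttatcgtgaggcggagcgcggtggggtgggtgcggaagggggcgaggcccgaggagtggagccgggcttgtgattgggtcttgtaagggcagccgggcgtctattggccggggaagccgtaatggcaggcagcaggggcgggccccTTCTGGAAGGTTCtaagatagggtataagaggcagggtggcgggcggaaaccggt
DNAJB4, chr1:78004689-78004938, plus strand: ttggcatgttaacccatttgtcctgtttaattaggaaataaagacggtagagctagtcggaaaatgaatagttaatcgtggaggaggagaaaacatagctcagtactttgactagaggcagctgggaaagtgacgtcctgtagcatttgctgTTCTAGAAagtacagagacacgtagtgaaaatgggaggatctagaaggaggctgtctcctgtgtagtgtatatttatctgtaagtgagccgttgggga
HSPH1, chr13:31162389-31162638, minus strand: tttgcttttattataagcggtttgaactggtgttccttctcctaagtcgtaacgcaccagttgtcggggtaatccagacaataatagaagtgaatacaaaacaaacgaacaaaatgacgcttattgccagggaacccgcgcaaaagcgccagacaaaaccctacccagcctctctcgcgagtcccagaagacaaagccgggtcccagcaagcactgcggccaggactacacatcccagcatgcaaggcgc
HSPA1A, chr6:31815293-31815542, plus strand: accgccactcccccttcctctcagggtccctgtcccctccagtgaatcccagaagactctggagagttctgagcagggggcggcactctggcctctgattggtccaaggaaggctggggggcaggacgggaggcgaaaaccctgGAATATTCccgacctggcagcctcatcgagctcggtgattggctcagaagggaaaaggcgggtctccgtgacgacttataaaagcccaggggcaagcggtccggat
HSPA6, chr1:161524290-161524539, plus strand: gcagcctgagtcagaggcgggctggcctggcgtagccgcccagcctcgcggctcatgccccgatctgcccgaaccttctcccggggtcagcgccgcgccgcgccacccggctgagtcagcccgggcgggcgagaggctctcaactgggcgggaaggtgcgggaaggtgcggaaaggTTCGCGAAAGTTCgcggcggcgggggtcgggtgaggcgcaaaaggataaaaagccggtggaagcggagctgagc

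HSPA8 held 2 of the 3-unit elements, at positions -230 to -218 and -55 to -43 from the start. HSPA6 held 1 at -74 to -62 and a separate 2-unit element, left in lower case, at -180 to -173. DNAJB4 held a 2-unit element alone, at -98 to -91 of the window printed, which belongs to a start inside the annotated gene. Its other RefSeq window, chr1:77978925-77979174, lies directly before the annotated gene start and held none. HSPA1A held a 2-unit element at -106 to -99. HSPH1 had neither in this window. Searched on both strands, the 3-unit element was in 7 of the 80 member windows (8.75%), those of DNAJA1, DNAJB6, HSP90AA1, HSP90AB1, HSPA6, HSPA8 and HSPD1, against 0.490% of all 35116 windows. The 2-unit elements, which also lie inside every 3-unit one, were more common. TTCNNGAA was in 16.25% of member windows and 7.74% of all windows, and GAANNTTC in 22.5% of member windows and 6.77% of all. A match describes letters in these windows and was not tested for binding.

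Libraries held 15678443 to 19604367 reads assigned to genes, and 17806 genes were tested. Levels are given as CPM, read counts scaled for depth with TMM. A gene with 3 reads stood at 0.153 to 0.191 CPM, depending on the library. The 70 genes together took 0.722% to 0.934% of gene reads. All 10 sympathetic markers, among them HAND2 and DBH, averaged over 1 CPM at each dose, as the label of the line would have it, and so did 8 of 8 mesenchymal markers such as VIM, FN1 and CD44. Neither list had a gene at 0.

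In vehicle cells the chaperones spanned a wide range of levels. Lengths here are the union of all annotated exons of a gene, so orders per kilobase depend on the annotation too. Per kilobase of exon, HSP90AB1, the constitutive cytosolic HSP90, was highest at 567 ± 47.1 CPM per kb (SD, n = 3, as for the levels that follow). HSP90AA1, its inducible relative, had 254 ± 33.7 CPM per kb and HSPA8, the constitutive cytosolic HSP70, 207 ± 50.4 CPM per kb, and their ranges of 1 SD overlap. The small heat shock protein HSPB1 followed at 157 ± 21.6 CPM per kb, then the mitochondrial HSPD1 at 119 ± 12 CPM per kb and the DNAJ protein DNAJA1 at 95.8 ± 12.7 CPM per kb, whose SDs meet.

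Below these 6 genes, HSPA4 of the HSP110 group had 49.4 ± 5.72 CPM per kb and HSPH1 28.5 ± 3.70 CPM per kb. DNAJC8, a nuclear protein linked to splicing, led the DNAJC family at 43.2 ± 2.22 CPM per kb, and the mitochondrial HSP70 HSPA9 had 39.3 ± 2.94 CPM per kb. DNAJB1 was highest among DNAJB genes at 21.9 ± 1.73 CPM per kb, followed by DNAJB6 at 14.5 ± 2.10 CPM per kb. Before division by exon length (14981 bases for DNAJB6, 3672 for DNAJB1) DNAJB6 stood higher, at 218 CPM against 80.3 CPM. DNAJA2 had 20.0 ± 1.74 CPM per kb, and DNAJC5, the cysteine string protein of synaptic vesicles, 14.7 ± 1.1 CPM per kb. HSF2 had 18.1 ± 1.05 CPM per kb and HSPB7 7.05 ± 1.65 CPM per kb. HSPE1, the partner of HSPD1, was listed at 3.31 ± 0.266 CPM per kb. Its exons overlap HSPD1 and the readthrough gene HSPE1-MOB4 and it has 26 pseudogenes, so that reads matching several places or several genes were not counted and its level is uncertain.

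**Figure D1:**
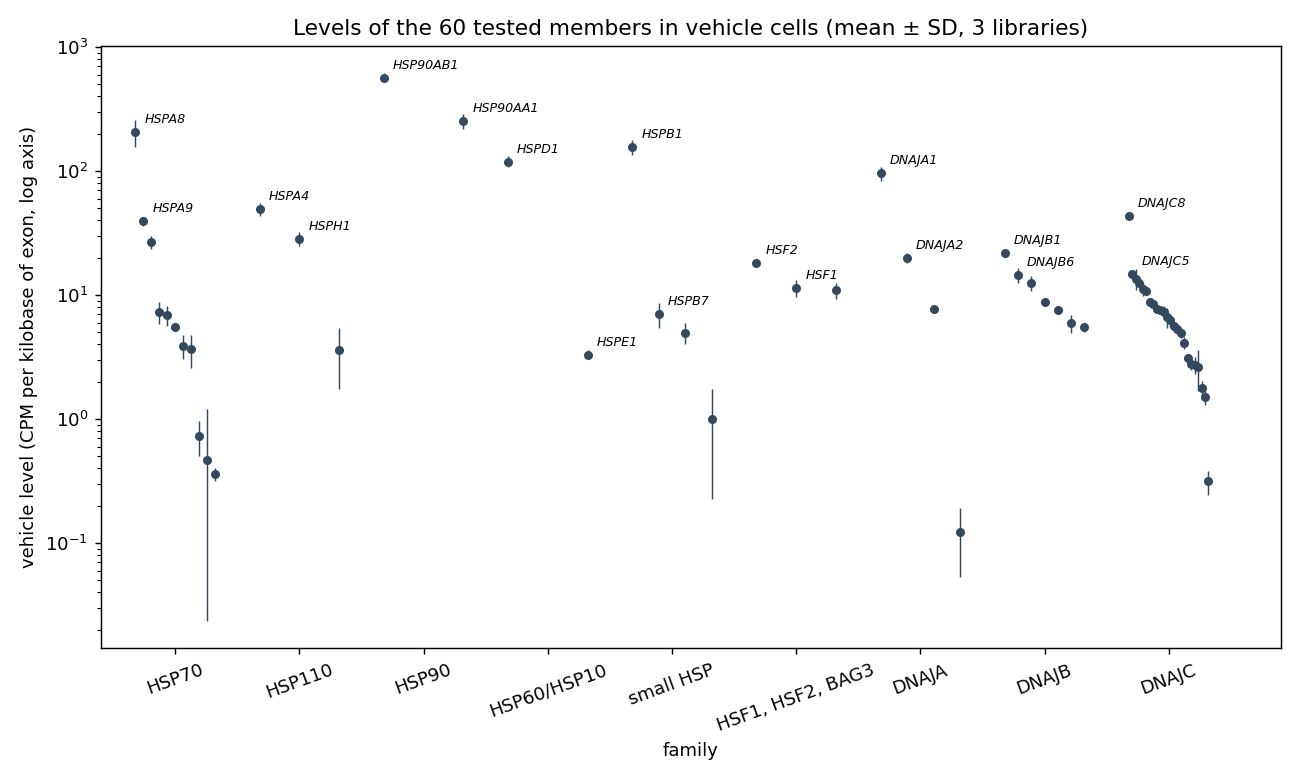
Vehicle level of each of the 60 tested members, in CPM per kilobase of exon on a log axis, grouped by family; points are means and bars SD over 3 vehicle libraries, and the 2 highest members of each family are named. HSP90AB1 stands highest at 567 CPM per kb; the lower bar of HSPA6, whose SD exceeds its mean, is cut short.

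The first question was which members changed at 20 µM citrinin. DNAJB4 rose 1.27-fold, HSPA8 1.13-fold and HSPH1 1.12-fold over vehicle, and 0 members fell. The increases were small, and they were called when the replicate number was kept as a block in the fit. In the planned edgeR quasi-likelihood fit without the block, 0 of 60 members and 0 of 17806 genes passed an adjusted p of 0.05, with 1 member and 387 genes at an unadjusted p under 0.05. With the block, 3 of 60 members passed (5%), and of all genes 393 did (2.21%), 0.848% being higher and 1.36% lower. Libraries with the same number deviated together, so the fit with the block is used for every log2 fold change below, and "rose" and "fell" refer to an adjusted p under 0.05 in it. Fewer cells of a type and less RNA per cell cannot be told apart in these bulk libraries.

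DNAJB4 (ENSG00000162616), an HSP70 partner closely related to DNAJB1, lies at chr1:77979175-78017964 on GRCh38. It had 41.8, 46.0 and 54.7 CPM in vehicle replicates 1, 2 and 3, 47.5, 50.3 and 57.8 CPM at 10 µM, and 55.2, 63.4 and 62.3 CPM at 20 µM. The lowest library at 20 µM stood just above the highest vehicle library, and the 10 µM libraries overlapped both. The log2 fold change at 20 µM was 0.35 ± 0.06 (SE, adjusted p = 0.00196 with the block in edgeR), with the 20 µM library higher in 3 of 3 replicate numbers. The call was kept in 8 of 9 fits that left out a single library and lost without vehicle replicate 2 (adjusted p = 0.0728). Its exons overlap those of GIPC2 by 78 bases, and reads there are not counted for either gene.

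HSPA8 (ENSG00000109971), at chr11:123057489-123063230, had 844, 882 and 1285 CPM in vehicle replicates 1, 2 and 3, 849, 960 and 1293 CPM at 10 µM, and 981, 997 and 1422 CPM at 20 µM. Replicate 3 was the highest at every dose, so the groups overlapped, while each 20 µM library exceeded the vehicle library of its own number. Its log2 fold change at 20 µM was 0.18 ± 0.05 (adjusted p = 0.0304 with the block in edgeR).

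HSPH1 (ENSG00000120694), the HSP110 protein that recharges HSP70, lies at chr13:31134974-31162388. It had 210, 236 and 272 CPM in vehicle replicates 1, 2 and 3, 213, 243 and 278 CPM at 10 µM, and 229, 269 and 305 CPM at 20 µM. The groups overlapped, and again 3 of 3 numbers were higher at 20 µM. The log2 fold change was 0.16 ± 0.04 (adjusted p = 0.0491 with the block in edgeR), near the threshold. Both HSPA8 and HSPH1 kept their call in 3 of 9 fits that left out a single library. Each lost it without any of the 3 vehicle libraries, without 10 µM replicate 3 and without 20 µM replicates 2 or 3, with adjusted p of 0.050 to 0.360 for HSPA8 and 0.135 to 0.384 for HSPH1.

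The stress-inducible HSPA1A (ENSG00000204389), at chr6:31815464-31817946, had 15.5, 16.8 and 22.5 CPM in vehicle replicates 1, 2 and 3, 18.9, 21.9 and 25.4 CPM at 10 µM, and 21.7, 21.3 and 24.3 CPM at 20 µM. Each number was higher at 20 µM than in vehicle, and the groups overlapped through vehicle replicate 3. The log2 fold change of 0.31 ± 0.09 did not pass (adjusted p = 0.0873 with the block in edgeR). Its near-identical neighbour HSPA1B had a log2 fold change of 0.29 ± 0.16 (adjusted p = 0.482), higher in 2 of 3 numbers. Reads that fit both genes were not counted, nor were reads where exons of HSPA1B overlap a further gene, so both levels are uncertain.

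BAG3, which exchanges the nucleotide of HSP70 and leads clients to autophagy, had 32.1, 24.8 and 33.1 CPM in vehicle replicates 1, 2 and 3, 32.1, 27.7 and 30.1 CPM at 10 µM, and 36.6, 29.6 and 40.5 CPM at 20 µM. All 3 numbers were higher at 20 µM than in vehicle, with a log2 fold change of 0.25 ± 0.08 (adjusted p = 0.103 with the block in edgeR). HSPA1A and BAG3 passed in 1 of 9 fits that left out a single library, that without 10 µM replicate 2.

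**Figure D2:**
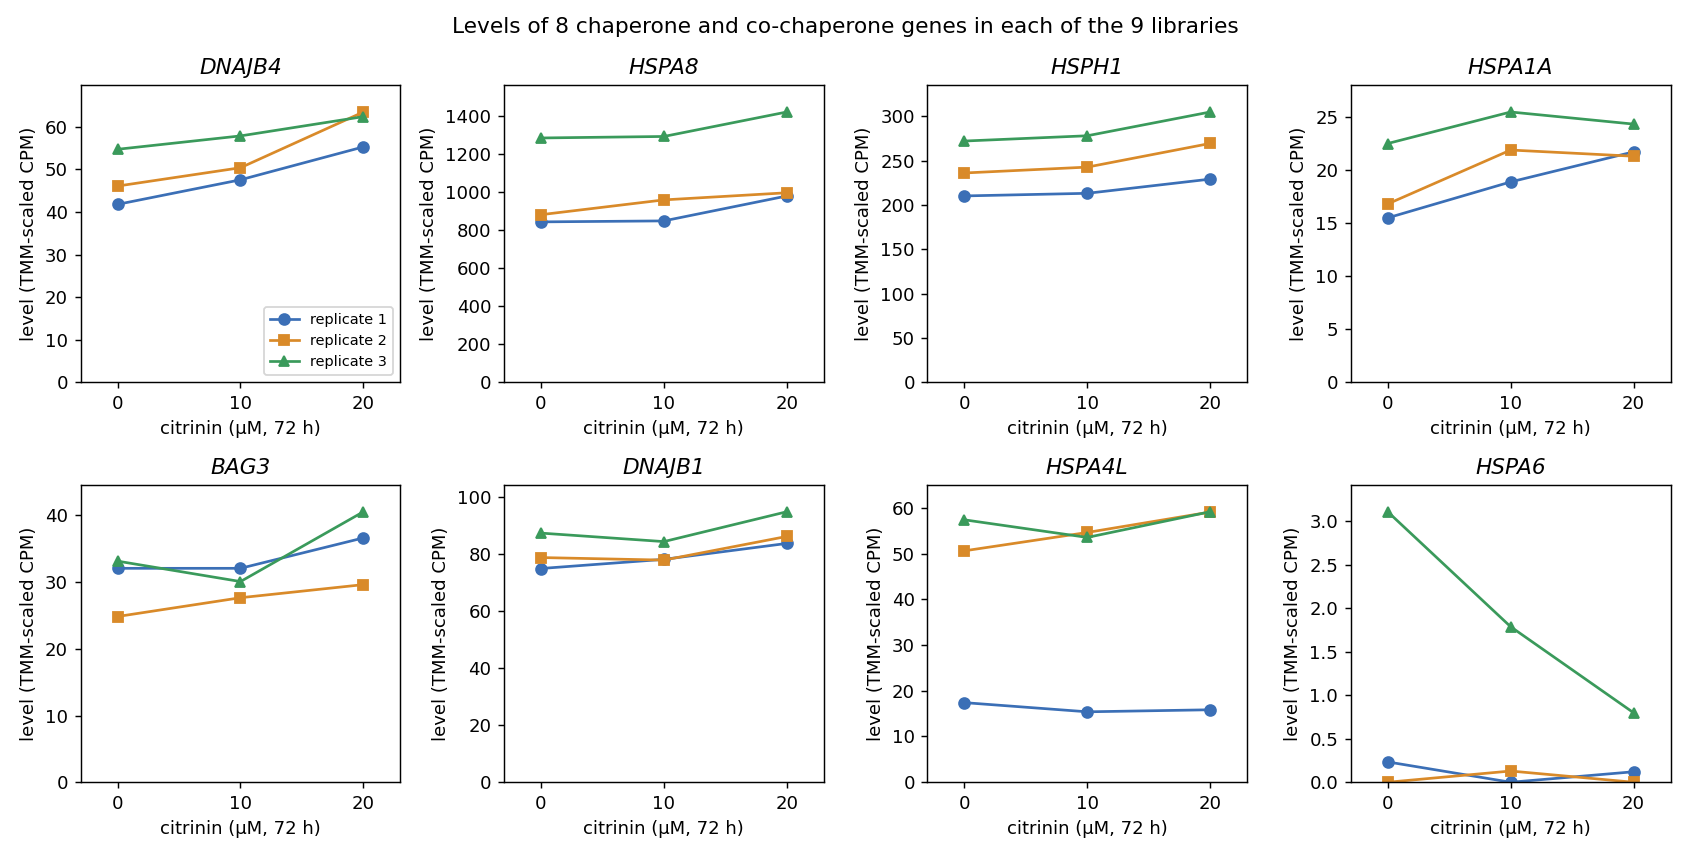
Level of 8 members in each library, in TMM-scaled CPM on linear axes from 0, against citrinin dose in µM after 72 h; lines join libraries with the same replicate number. For DNAJB4, HSPA8, HSPH1, HSPA1A, BAG3 and DNAJB1 all 3 lines end higher at 20 µM than at vehicle, and HSPA4L and HSPA6 differ mainly between replicate numbers.

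Among other cytosolic members, DNAJB1, the main inducible DNAJ protein, had a log2 fold change of 0.14 ± 0.05 (adjusted p = 0.232), HSPA4 of 0.11 ± 0.05 (adjusted p = 0.249), DNAJA1 of 0.12 ± 0.05 (adjusted p = 0.267) and HSP90AA1 of 0.10 ± 0.04 (adjusted p = 0.292). DNAJB1, HSPA4 and HSP90AA1 were higher at 20 µM in 3 of 3 numbers and DNAJA1 in 2 of 3. HSPD1 had 0.06 ± 0.04 (adjusted p = 0.613). A further 12 members that include both heat shock factors, HSP90AB1, HSPA9, HSPB1, HSPB8 and the anti-aggregation proteins DNAJB2 and DNAJB6 had log2 fold changes of -0.01 to 0.21 (lowest adjusted p 0.565). HSF1, the central regulator, was at 61.4 ± 8.88 CPM at 20 µM and 60.8 ± 9.61 CPM in vehicle, with a log2 fold change of 0.01 ± 0.06. HSF2 was at 49.6 ± 2.06 CPM at 20 µM and 48.9 ± 2.85 CPM in vehicle.

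The lowest values among members averaging at least 2 CPM belonged to DNAJC19, DNAJC14 and HSPB7. DNAJC19, part of the motor that pulls proteins into mitochondria, had 30.0, 32 and 28.4 CPM in vehicle replicates 1, 2 and 3, 26.0, 27.6 and 26.8 CPM at 10 µM, and 27.7, 24.6 and 28.2 CPM at 20 µM. The libraries of either citrinin dose lay below every vehicle library. Even so, the log2 fold change at 20 µM of -0.17 ± 0.08 did not pass (adjusted p = 0.387), and neither did -0.17 ± 0.08 at 10 µM. With DNAJB4 it made 2 of 60 members whose groups did not overlap between 20 µM and vehicle, against 6.76% of all genes tested, so non-overlap was no more common among members. DNAJC14 had -0.15 ± 0.07 (adjusted p = 0.378) and HSPB7 -0.15 ± 0.10 (adjusted p = 0.561). Exons of DNAJC14 overlap those of ORMDL2, TMEM198B and a further gene, and reads there are not counted.

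By family, 8 of 11 tested HSP70 genes had a positive log2 fold change at 20 µM (median 0.11), with 1 called, and so had 3 of 3 HSP110 genes (median 0.11), with 1 called. Both HSP90 genes were positive with 0 called, as were HSPD1 and HSPE1. DNAJB genes were positive in 6 of 7 (median 0.04), with 1 called, and DNAJA genes in 3 of 4 (median 0.10), with 0 called. The DNAJC family, whose members mostly serve special sites or clients, was positive in 9 of 24 (median -0.02, range -0.24 to 0.17), with 0 called. Small heat shock genes were positive in 2 of 4, with 0 called. Over all 60 members 38 were positive (median 0.02), against 49.4% and a median of -0.00 over all genes tested. The 3 members called were 5% of the 60, against 2.21% of all genes.

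A list of 15 members grouped here as heat inducible had 14 positive values at 20 µM, a median of 0.14, and 3 called higher. It also holds HSPA8 and HSP90AB1, described above as constitutive, and HSPA8 is among those called. The other 45 members were positive in 24, with a median of 0.01 and 0 called. Of all genes tested 2.21% were called, so 0 of 45 is not read as a result about them. The list was drawn up with earlier results of these data known, so its count is a description. Its median was 0.14 with edgeR, limma-voom, DESeq2 and RLE scaling alike, with or without the block. Leaving out single libraries moved the median to between 0.06 and 0.26 without the block and between 0.08 (without 20 µM replicate 1) and 0.16 with it. Without the block the same omissions moved the positive count to between 9 (without 20 µM replicate 3) and 15 (without vehicle replicate 3), and to 10 without vehicle replicate 1. With the block the positive count was 12 to 14. The member of the list that went the other way was HSPA6, described below.

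Markers of cell state moved alongside. At 20 µM, 7 of 10 sympathetic markers fell and 0 rose, and their summed level was 2417 to 3483 CPM at 20 µM and 2901 to 3796 CPM in vehicle. Of 8 mesenchymal markers, CD44, VIM and YAP1 rose and 0 fell, and 5 had a positive log2 fold change (median 0.04). Their sums in replicates 1, 2 and 3 were 6270, 5217 and 7140 CPM at 20 µM. In vehicle they were 6514, 4750 and 6769 CPM, so the sum was lower at 20 µM in replicate 1. In the glial and epithelial lists 0 of 3 and 0 of 3 tested genes were called, and their sums stayed at 6.92 to 8.21 CPM and 38.6 to 45.2 CPM at 20 µM, and at 5.43 to 8.0 CPM and 32.3 to 48.6 CPM in vehicle. The part of these shifts in the chaperone values was not tested.

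**Figure D3:**
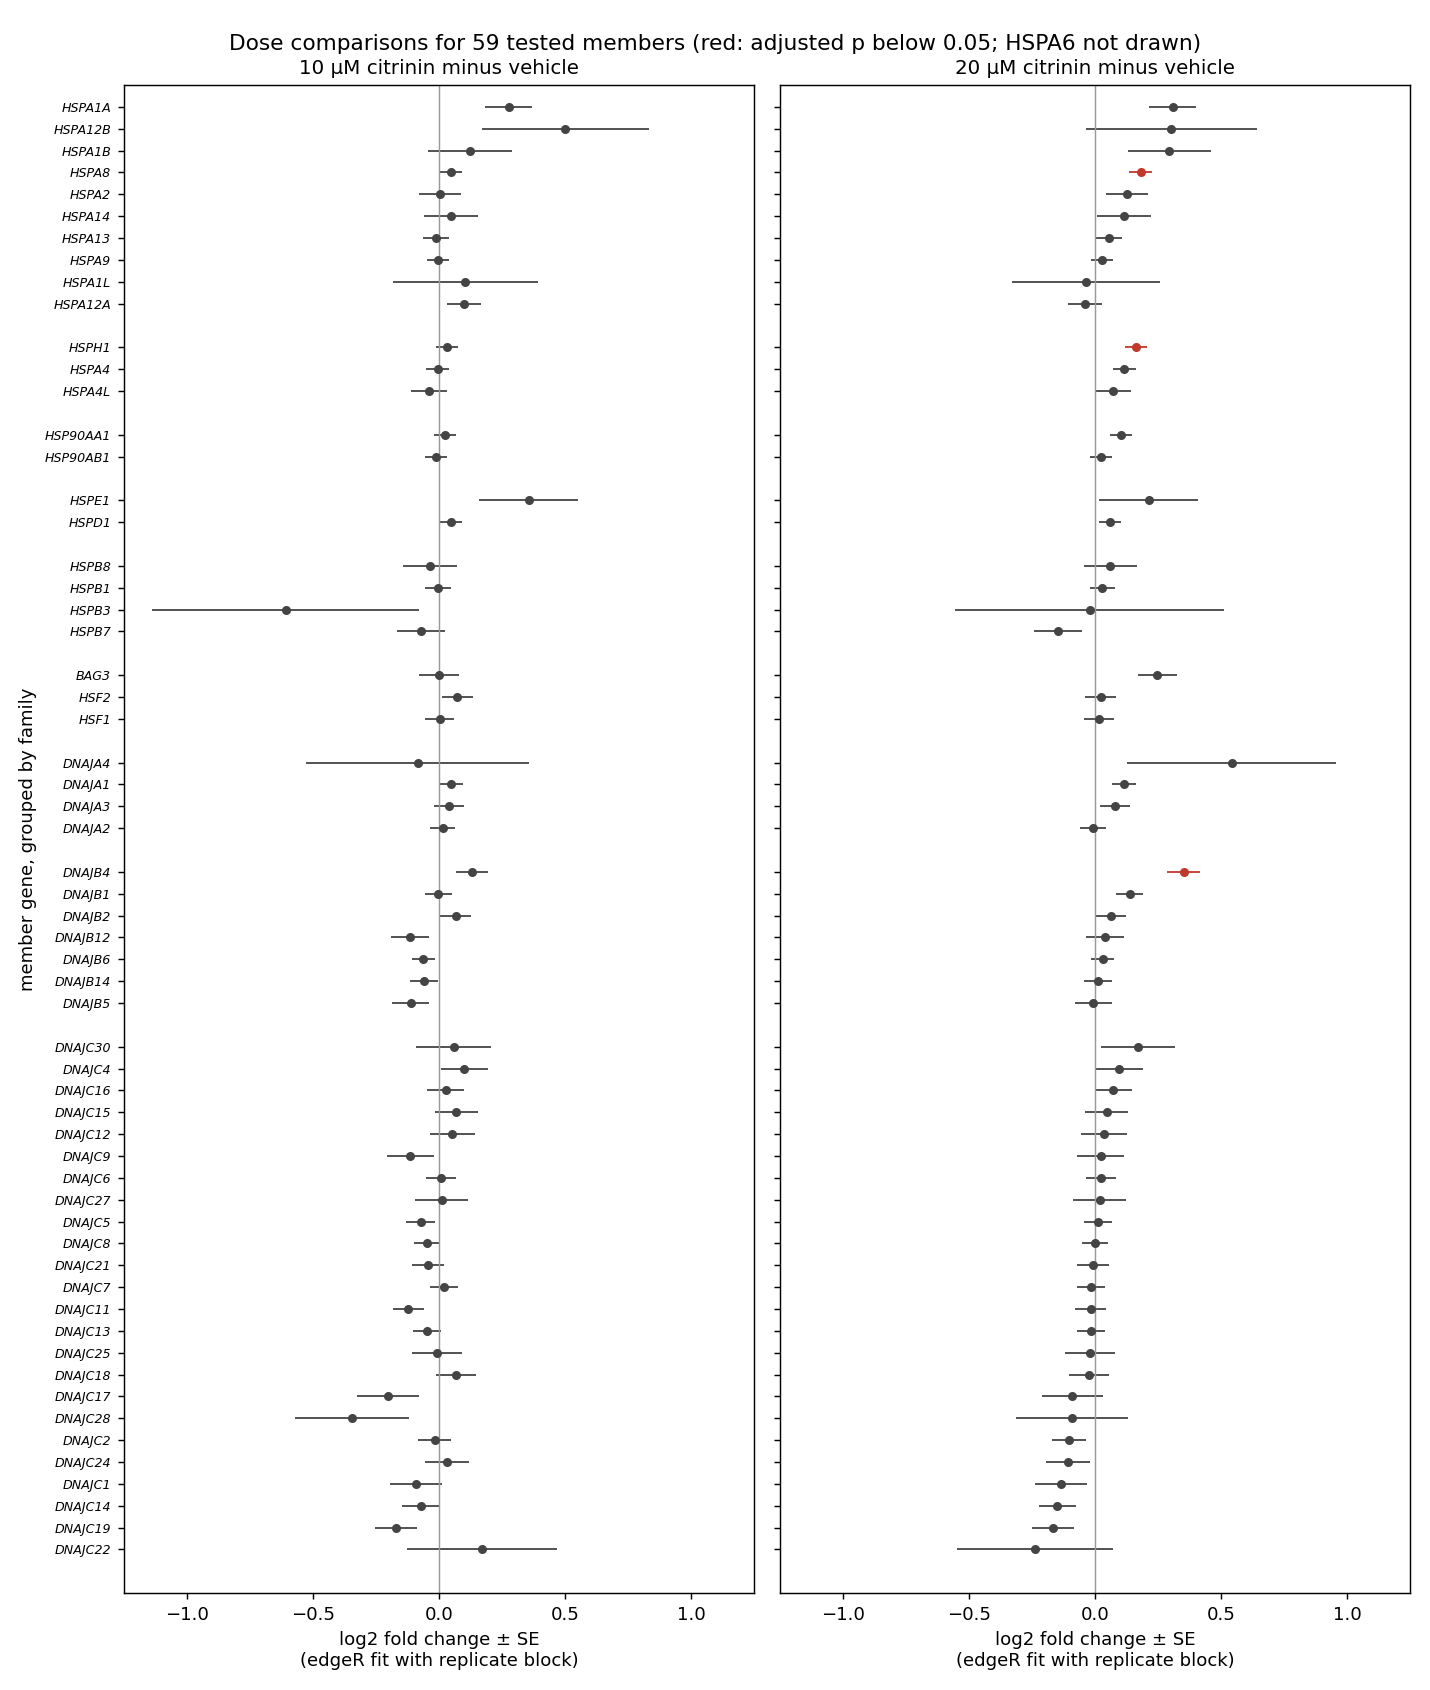
Log2 fold change with SE of the tested members, at 10 µM (left panel) and 20 µM (right panel) citrinin minus vehicle, from the edgeR fit with the replicate block; red points passed an adjusted p of 0.05 and HSPA6 is left out for its scale. DNAJB4, HSPA8 and HSPH1 are red at 20 µM and no member is at 10 µM; both panels use the same vehicle libraries.

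At 10 µM against vehicle, 0 of 60 members were called with the block (0.0337% of all genes were) and 0 without it, with 2 members and 640 genes at an unadjusted p under 0.05 with the block and 0 members and 115 genes without. DESeq2 and limma-voom also called 0 members. The comparison uses the same vehicle libraries as that at 20 µM. The log2 fold change at 10 µM was 0.28 ± 0.09 for HSPA1A, 0.13 ± 0.07 for DNAJB4, 0.05 ± 0.05 for HSPA8, 0.03 ± 0.04 for HSPH1 and -0.00 ± 0.08 for BAG3. In the heat-inducible list 9 of 15 were positive (median 0.03).

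At 20 µM against 10 µM, again 0 of 60 members were called with the block (0.444% of all genes were, 0.18% higher and 0.264% lower) and 0 without it, with 7 members and 1568 genes at an unadjusted p under 0.05 with the block and 0 members and 210 genes without. DESeq2 and limma-voom called 0 members here too. The log2 fold change was 0.25 ± 0.08 for BAG3 (adjusted p = 0.222), 0.22 ± 0.06 for DNAJB4 (adjusted p = 0.163), 0.13 ± 0.05 for HSPA8 (adjusted p = 0.294) and 0.13 ± 0.04 for HSPH1 (adjusted p = 0.282), each higher at 20 µM in 3 of 3 numbers. HSPA1A was at 0.03 ± 0.09. HSPA8 was called here without 10 µM replicate 2 (adjusted p = 0.0437). In the heat-inducible list 13 of 15 were positive (median 0.08).

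The replicate number set the members further apart than the dose did. It accounted for a median of 61.0% of the variance of a member's log2 level, and the dose for 11.2%, against 55.1% and 11.4% over all genes tested. In the edgeR fit with dose and number, 33 of 60 members differed between numbers (55%), as did 43.3% of all genes. Limma-voom gave 33 members as well. Without the vehicle libraries 20 of 59 members and 4848 of 17222 genes were called. Without the 10 µM libraries the counts were 32 of 59 and 7019 of 17244. Without the 20 µM libraries they were 32 of 59 and 6511 of 17225. The 2 contrasts between numbers described next were chosen after the values were seen.

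HSPA4L, an HSP110 protein, differed the most by p. It had 17.4, 50.6 and 57.4 CPM in vehicle replicates 1, 2 and 3, 15.4, 54.6 and 53.5 CPM at 10 µM, and 15.8, 59.1 and 59.1 CPM at 20 µM. Replicate 1 was lower at every dose with no overlap, and the log2 difference of replicate 1 from replicates 2 and 3 was -1.78 ± 0.07 (adjusted p = 3.54e-17 in edgeR). DNAJC15, a mitochondrial import protein, averaged 13.2 ± 0.755 CPM in replicate 1, 27.1 ± 0.854 CPM in replicate 2 and 24.7 ± 0.120 CPM in replicate 3 (SD over 3 doses), a log2 difference of -0.96 ± 0.08 (adjusted p = 1.39e-10 in edgeR). HSPA12A, a distant HSP70 relative, averaged 30.2 ± 2.0 CPM in replicate 1, 53.3 ± 1.78 CPM in replicate 2 and 48.4 ± 3.55 CPM in replicate 3.

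Across the 60 members, 6 were higher and 24 lower in replicate 1 than in replicates 2 and 3. Of all genes 41.5% differed, 20.2% higher and 21.3% lower. The 24 include HSPA4 (-0.38 ± 0.04), HSPA8 (-0.34 ± 0.04), HSPH1 (-0.29 ± 0.04) and HSP90AA1 (-0.27 ± 0.04). HSF1 was among the 6, with 0.32 ± 0.05. Of the sympathetic markers 8 were higher and 2 lower in replicate 1, and of the mesenchymal markers 4 were higher and 2 lower.

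Replicate 3 stood above replicate 2 in 11 members and below it in 2, DNAJC12 and DNAJC5. The 11 include HSPB3 and HSPA6, the latter described below, and neither passed the low-count filter through a replicate 2 library. Their direction in this contrast was thus set by that filter. HSPB3 had 2, 0 and 7 reads in replicate 2 at vehicle, 10 µM and 20 µM, and 13 to 22 reads in each other library. Of all genes 11.7% differed, 5.86% higher and 5.88% lower. Of the 15 heat-inducible members 9 were higher in replicate 3, with HSPA8 at a log2 difference of 0.49 ± 0.05, HSPB1 at 0.34 ± 0.05, BAG3 at 0.33 ± 0.08, HSPA1A at 0.28 ± 0.09, HSP90AA1 at 0.20 ± 0.04, HSPH1 at 0.19 ± 0.04, HSP90AB1 at 0.17 ± 0.04 and HSPD1 at 0.14 ± 0.04. The small heat shock protein HSPB8, a partner of BAG3, averaged 12.7 ± 0.673 CPM in replicate 1, 11.7 ± 0.596 CPM in replicate 2 and 18.6 ± 1.64 CPM in replicate 3. Of 8 mesenchymal markers 7 were also higher in replicate 3, where their sums were 6769, 6868 and 7140 CPM at vehicle, 10 µM and 20 µM, against 4750, 4785 and 5217 CPM in replicate 2. In replicate 1 the mesenchymal sums were 6514, 6473 and 6270 CPM. There the summed level of the heat-inducible list was the lowest of the replicate numbers at every dose, at 4934, 5000 and 5316 CPM. The part of the mesenchymal markers in the chaperone difference was not tested.

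HSPA6, an HSP70 gene that is nearly silent without stress, was the ninth of these. It passed the low-count filter only through the replicate 3 libraries, so its direction between replicates 3 and 2 was set by that filter. It had 53 reads in vehicle replicate 3, 35 at 10 µM replicate 3 and 14 at 20 µM replicate 3, with exact Poisson 95% intervals of 39.7 to 69.3, 24.4 to 48.7 and 7.65 to 23.5 reads. In each of the other 6 libraries it had 0 to 4 reads. HSPA7, a near copy of HSPA6, had 5, 4 and 2 reads in the replicate 3 libraries and 1 read in all the others together. Within replicate 3 the level at 20 µM was 0.257 times that of vehicle (counting interval 0.132 to 0.469) and at 10 µM 0.575 times (0.364 to 0.898). Each ratio compares 2 libraries and covers counting error only.

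HSPA6 was thus the 1 heat-inducible member with a negative value at 20 µM, -1.76 ± 0.65 (adjusted p = 0.202 with the block in edgeR). That fitted value depends on the prior count for libraries at 0. Without vehicle replicate 3 and without the block its sign turned, to 1.36.

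**Figure D4:**
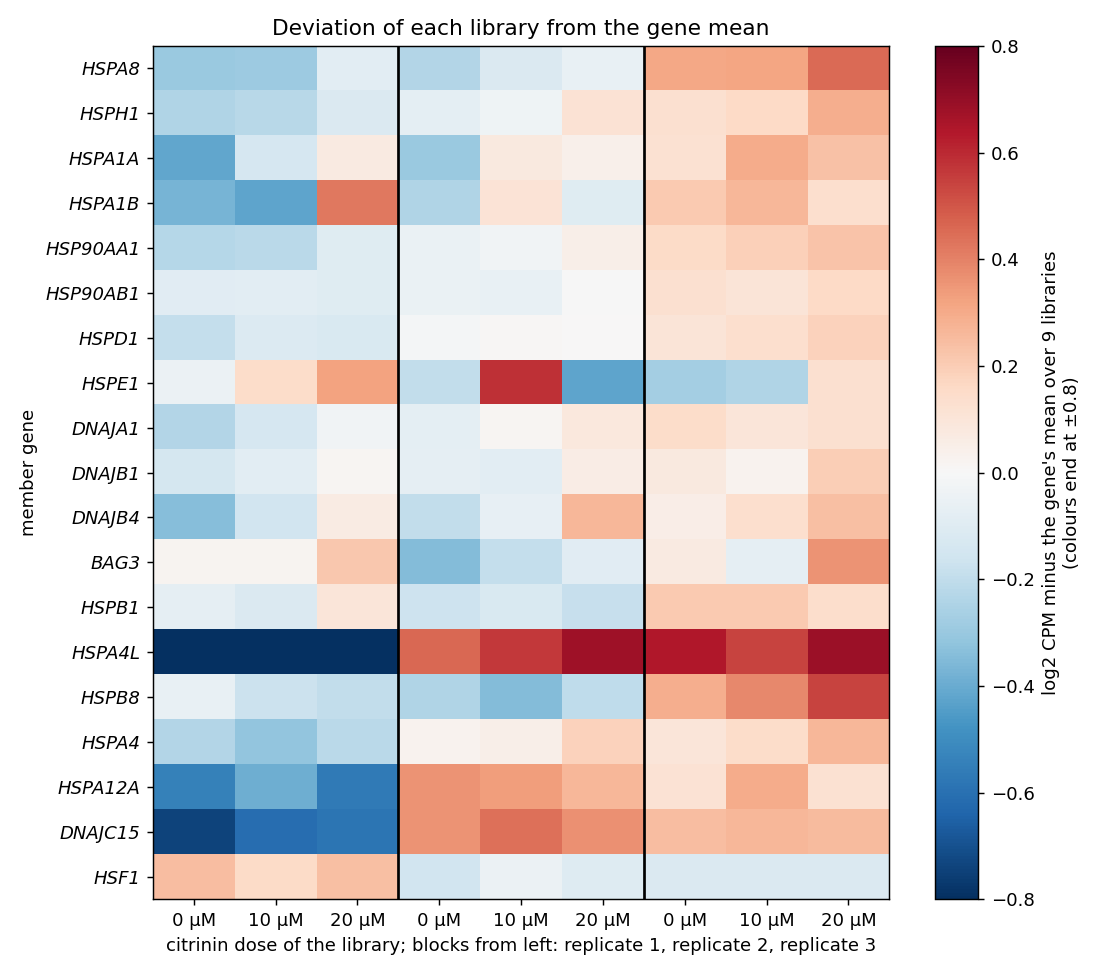
Log2 level of 19 members in each library minus the member's mean over the 9 libraries, as colour (red higher, blue lower), with libraries ordered by replicate number and, within a number, by citrinin dose. HSPA8, HSPB8 and HSPB1 are red in the replicate 3 libraries, and HSPA4L, HSPA12A and DNAJC15 are blue in the replicate 1 libraries, at every dose.

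Of 38 co-chaperones that are not members, 1 rose at 20 µM with the block and 0 fell, against 0.848% and 1.36% of all genes tested. The 38 had 25 positive values and a median log2 fold change of 0.03. BAG2, which binds HSP70 and curbs the ubiquitin ligase STUB1, had 18.0, 24.8 and 32.1 CPM in vehicle replicates 1, 2 and 3, 24.7, 28.8 and 32.6 CPM at 10 µM, and 24.1, 30.6 and 38.5 CPM at 20 µM. Its log2 fold change at 20 µM was 0.32 ± 0.08 (adjusted p = 0.0374 with the block in edgeR), higher in 3 of 3 numbers with groups that overlapped. The call was lost without any of the 3 vehicle libraries, 10 µM replicate 3 or 20 µM replicates 2 and 3, with adjusted p of 0.0576 to 0.292. It was also lost with the block in DESeq2 (adjusted p = 0.0896) and limma-voom (adjusted p = 0.0583). Of 15 cytosolic chaperonin and prefoldin genes 1 rose and 0 fell (median 0.04). It was PFDN1, a prefoldin subunit named here after its values were seen. With 1 call each, neither count is read as a result about its list.

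PFDN1 had 25.6, 26.0 and 24.5 CPM in vehicle replicates 1, 2 and 3, 26.4, 26.9 and 23.9 CPM at 10 µM, and 32.6, 32.9 and 29.6 CPM at 20 µM. All 20 µM libraries lay above all others, with a log2 fold change over vehicle of 0.32 ± 0.08 (adjusted p = 0.0195 with the block in edgeR). That call was kept in 4 of 9 fits that left out a single library. It was lost without any of the 3 vehicle libraries or 20 µM replicates 2 and 3, with adjusted p of 0.0755 to 0.222. None of the 5 excluded endoplasmic reticulum chaperones passed, nor did HSP90B1 of the same compartment.

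Of the 14 antisense, divergent and readthrough loci 5 were tested, 5 had 0 reads, and 0 were called in any dose comparison or for the replicate number. All exon bases of the readthrough loci DNAJC25-GNG10 and HSPE1-MOB4 overlap other genes, and reads in several genes were not counted. Their 0 reads therefore do not show that they are silent. DNAJC27-AS1 had the highest log2 fold change at 20 µM, 0.45 ± 0.29, and HSPA2-AS1 the lowest, -0.34 ± 0.48. The kit does not mark strand, so reads of overlapping antisense genes cannot be told apart.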

How the data were processed

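RNA-seq reads per gene were deposited by the authors as whole-number counts for each of 9 libraries. Per the submitters' processing notes, FastQC, cutadapt, STAR, edgeR and GRCh38 were used, and the notes carry no versions and name no annotation release. The count column that ignores strand was used, since both strands held nearly equal reads (ratio 1.01 to 1.02). Reads in several genes (9.51% to 10.1%) or several places (2.22% to 2.61%) are not counted for any gene, and 6.75% to 7.98% lay outside genes.

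Lines without a gene were dropped, and genes were filtered with filterByExpr, TMM-scaled and tested in edgeR 4.0.16 (R 4.3.3, robust quasi-likelihood, Benjamini-Hochberg adjustment over 17806 genes, all 9 libraries in 1 fit). The planned fit had no block. Same-numbered libraries deviated together (correlations 0.457 to 0.685 in 9 pairs, against -0.545 to 0.139 in 18 pairs with different numbers, limit 0.1), so a second fit, blocked on that number, is given beside it. The labels give the numbers but do not state that equal numbers were paired, so the pairing is read from these correlations. DESeq2 1.42.0, limma-voom (limma 3.58.1), RLE scaling, no filter, 2 groups only and left-out libraries were alternatives. The fits were also run on counts simulated from the fit with the block. That run has the replicate differences built in, so it cannot show that the calls in these data are right.

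Named genes are the leading chaperones, all members called, fixed regulators and family leaders, the 3 highest and 3 lowest fold changes among the 54 members averaging at least 2 CPM, the 5 members with the smallest p for replicate number, and called co-chaperones; DNAJC12 and others named outside it were chosen after their values were seen. Members and lists were chosen with earlier results of these data known. Exon lengths and gene coordinates come from GENCODE 29 on GRCh38, and promoters from RefSeq on GRCh38.p14. Intervals cover counting error only.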

Additional observations from a re-analysis of the deposited data

How the results depend on the processing

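The planned fit without a block called 0 genes in each dose comparison, so the calls given above rest on the replicate block. At 20 µM against vehicle, edgeR with the replicate block called 393 genes, DESeq2 266 with the block and 11 without, limma-voom with the block 381, RLE scaling with the block 399, no low-count filter 560 with the block and 6 without, and the 2 groups alone with the block 644. At 10 µM against vehicle the replicate block gave 6 genes in edgeR, 6 in DESeq2, 7 in limma-voom, 6 with RLE scaling, 23 with no filter and 12 with the 2 groups alone. At 20 µM against 10 µM it gave 79, 68, 77, 79, 188 and 30 in the same order. Leaving out libraries gave 0 to 729 genes at 20 µM against vehicle, 0 to 16 at 10 µM against vehicle and 0 to 301 at 20 µM against 10 µM. For the replicate number, 4848 to 7019 genes were called when a dose group was left out, the fewest without the vehicle group.

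With the block, HSPA8 and DNAJB4 were called in DESeq2 too, and HSPH1 was not (adjusted p = 0.0622), nor without the low-count filter (adjusted p = 0.0598). Of 3 fits that left out a whole replicate number, DNAJB4 was called in 3, HSPH1 in 1 and HSPA8 in 0. Log2 fold changes changed sign in some fits with a library left out. Of the genes below, only HSPA1B at 20 µM against vehicle and HSPA1A at 20 µM against 10 µM did so with the block. The others did so only without it. For HSPA8 at 20 µM against vehicle, leaving out single libraries with the block gave 0.150 to 0.199. Ranges over fits with and without the block at 20 µM against vehicle were -0.024 to 0.392 for HSPA8, -4.08 to 1.36 for HSPA6, -0.012 to 0.497 for HSPA1B, -0.027 to 0.129 for HSPD1 and -0.290 to 0.042 for HSPB7. At 10 µM against vehicle they were -0.152 to 0.261 for HSPA8 and -0.072 to 0.133 for HSPH1, and at 20 µM against 10 µM -0.066 to 0.326 for HSPA8, -0.079 to 0.140 for HSPA1A and -0.0060 to 0.250 for HSPA4. The cause was not tested. At this depth genes under 1 CPM, such as HSPA6 outside replicate 3, rest on a few reads.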
